A study of Mus musculus with 6 samples.

Results

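Osteopontin, encoded by Spp1, and 4 genes that encode its receptors, Cd44, Itgav, Itgb3 and Itga9, were read in the aortas of apoE-/- and wild type mice. The members were chosen by name, as a ligand and its receptors, from earlier results of these same arrays in which the genotype difference was known. Their values between genotypes are therefore given as a description, with no test. The 5 genes were represented by 15 probe sets, out of 18194 named genes and 45037 probe sets in all. The deposited annotation table names 14 of these probe sets, and the remaining one, 1449254_at, is taken as Spp1 from the selection rule, since that table has no entry for it.

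The arrays held total RNA from the aorta of 32-week-old mice, 3 from the apoE-/- genotype on the C57BL/6J background and 3 from wild type C57BL/6J. Mice without apolipoprotein E clear remnant lipoproteins poorly and develop high plasma cholesterol and plaques in the artery wall. The labels give neither diet, sex nor the number of animals behind an array, so the spread between arrays may be technical. Apoe itself read 239.5, 56.3 and 462.1 units on the apoE-/- arrays, against 5685.6, 5625.2 and 4309.1 units on the wild type arrays, so all 6 arrays matched their labels. Wild type replicate 3 stood apart by its skeletal muscle markers, which summed to 19771 units, against 793.7 and 890.5 units on the other wild type arrays and at most 549 units on the apoE-/- arrays. ApoE-/- replicate 3 stood apart by genes made mainly in liver, with F2 at 780.7, Plg at 615 and Vtn at 567.8 units, against at most 245.9, 39.9 and 141.9 units on any other array. Median intensity was 178 to 195.5 units per array. The 7 smooth muscle markers, which define the main cell type of the wall, were all well represented. Their sum was 57189 to 70577 units on apoE-/- arrays and 64446 to 74001 units on wild type arrays. All 7 had a lower mean in apoE-/-, and 0 were called in the test described below. Smtn was lower without overlap, at 5440.9 to 6355.9 units in apoE-/- and 7280 to 7453 units in wild type. Lmod1 was as well, at 2457.3 to 3379.3 units in apoE-/- and 3734.9 to 3866.1 units in wild type.

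Osteopontin is a secreted, acidic phosphoprotein first known from bone mineral and made in plaques by macrophages and by altered smooth muscle cells. Cells bind it through an arginine-glycine-aspartate motif that is recognised by integrins, heterodimers of an alpha and a beta chain. The alpha v chain (Itgav) pairs with the beta 3 chain (Itgb3), whereas the alpha 9 chain (Itga9) binds a neighbouring site that thrombin cleavage exposes. CD44, the main cell surface receptor for hyaluronan, is a further osteopontin receptor on leukocytes.

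The promoter sequences of the ligand and of the receptor that was higher together with it in apoE-/- aorta are shown for reference, from RefSeq on build GRCm38.p6. Each runs from 250 bases before to 50 bases after the annotated start, 5′ to 3′ on the strand of the gene. Spp1 is at chr5:104434861-104435160 on the plus strand and Cd44 at chr2:102901616-102901915 on the minus strand. Capitals mark matches on either strand to 4 motifs, ACCACA (the core bound by RUNX factors), GAGGAAGT (bound by PU.1 and other ETS factors), TGANTCA (AP-1) and CATGTG (bound by MITF).
Spp1: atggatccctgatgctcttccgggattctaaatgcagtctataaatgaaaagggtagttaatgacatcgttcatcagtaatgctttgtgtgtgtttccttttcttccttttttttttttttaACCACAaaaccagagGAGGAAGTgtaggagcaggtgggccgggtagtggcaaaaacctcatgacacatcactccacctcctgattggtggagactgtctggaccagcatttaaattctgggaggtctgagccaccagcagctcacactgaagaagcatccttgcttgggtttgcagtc
Cd44: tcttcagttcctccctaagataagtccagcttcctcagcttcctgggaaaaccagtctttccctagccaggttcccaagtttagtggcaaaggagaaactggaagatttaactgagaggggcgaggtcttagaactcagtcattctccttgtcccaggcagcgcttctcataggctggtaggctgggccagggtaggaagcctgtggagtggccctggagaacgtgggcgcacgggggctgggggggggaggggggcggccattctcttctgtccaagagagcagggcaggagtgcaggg
The Spp1 promoter held ACCACA starting 128 bases before the start and GAGGAAGT starting 113 bases before it. Among 32851 promoters of the same length, 16.8% held the first motif, 3.2% the second, 7.81% the AP-1 motif and 14.2% the MITF motif. The Itgav promoter held the reverse complement of GAGGAAGT 9 bases before its start, and the Itga9 promoter an AP-1 match 39 bases after its start. No match to any of the 4 was found in the Cd44 window. These matches are letters in a window and do not show that a factor binds there. The table holds a further Spp1 start site, whose promoter is not printed. Promoters were found for 4 of the 5 members, without Itgb3.

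Spp1 was nearly dark in wild type aorta and among the bright signals of apoE-/- aorta. Its probe set read 13900, 10666 and 11261 units on the apoE-/- arrays, against 111.3, 105.9 and 82.3 units on the wild type arrays. The groups lay far apart, and each was tight, with a coefficient of variation of 14.4% in apoE-/- and 15.4% in wild type. Mean intensity was 11942 ± 1722 units in apoE-/- aorta and 99.8 ± 15.4 units in wild type aorta (SD, n = 3 each), a ratio of 120. On the log2(intensity + 16) scale, on which a small offset is added before taking logs, the difference was 6.69 ± 0.14 (SE). Between 33.5% and 36.0% of all probe sets read under 100 units on an array, and the table has no detection calls, so the wild type signal is not shown to be above background and the ratio depends on it.

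By size of difference, Spp1 stood at rank 2 among 27022 probe sets kept after a filter on dim signals, behind Mmp12. It passed that filter only through its apoE-/- values, as its wild type mean was under the limit of 124 units. Adding 1 unit in place of 16 gave a difference of 6.89, and adding 64 gave 6.19 and rank 1. Leaving out apoE-/- replicate 3, or the wild type array numbered 3, also put Spp1 at rank 1, so its order against Mmp12, whose wild type values were dim, turned on single arrays. With any one array left out the Spp1 difference was 6.58 to 6.77.

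**Figure D1:**
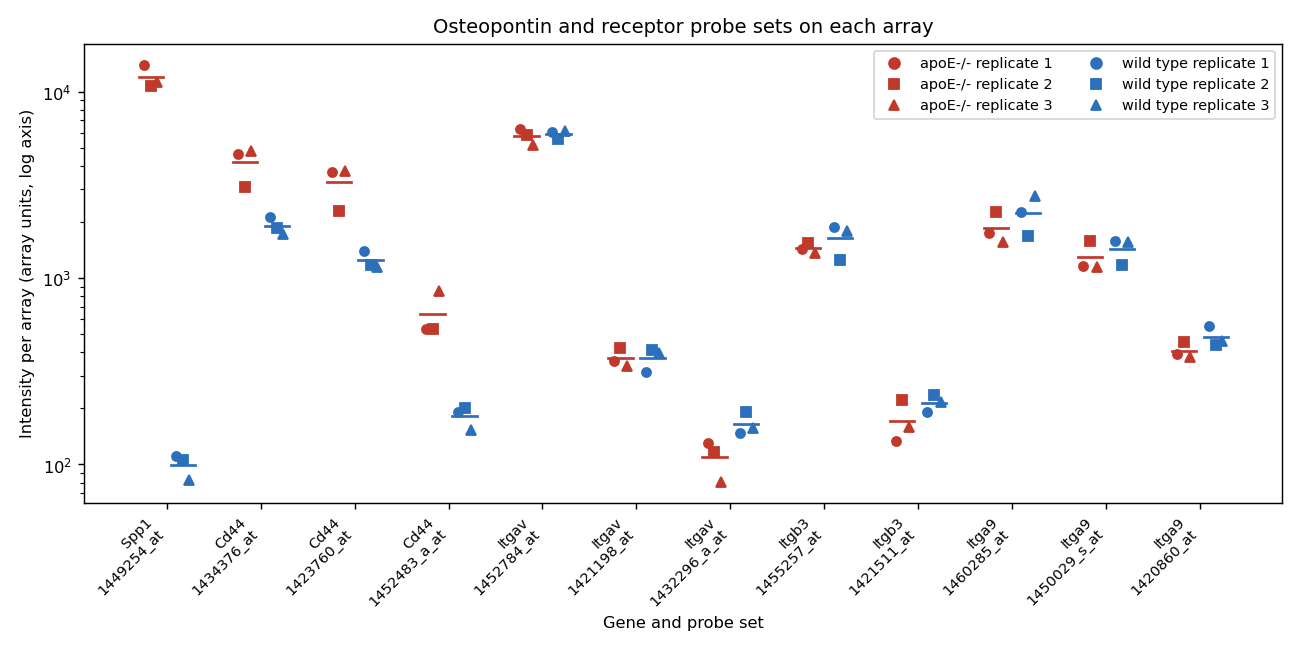
Intensity of the 12 kept probe sets of Spp1, Cd44, Itgav, Itgb3 and Itga9 on each array, on a log axis in array units, with apoE-/- (red) left of wild type (blue) and a line at each group mean. Spp1 and the 3 Cd44 probe sets have all apoE-/- arrays above all wild type arrays, and most integrin probe sets overlap.

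Cd44 was higher in apoE-/- aorta by 3 of its 4 probe sets. Probe set 1434376_at read 4600.9, 3091.1 and 4817.3 units on the apoE-/- arrays, against 2115.8, 1862.5 and 1717 units on the wild type arrays. Probe set 1423760_at read 3702.9, 2300.7 and 3768.8 units in apoE-/-, against 1400.5, 1180.5 and 1144.3 units in wild type. In both, the apoE-/- replicate 2 array was the lowest of its genotype and still above every wild type array. Probe set 1452483_a_at, whose suffix marks probes shared by several transcripts of a gene, read 535.2, 535 and 851.7 units in apoE-/-, against 191.3, 201.5 and 152.2 units in wild type. Here apoE-/- replicate 1 was as low as replicate 2, so the order of the arrays differed from that of the other pair of probe sets.

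The ratios of the Cd44 means were 2.20, 2.62 and 3.53 in that order. The log2 differences were 1.11 ± 0.17, 1.35 ± 0.19 and 1.71 ± 0.20 (SE), and whether they differ from one another was not tested. With any one array left out they were 0.99 to 1.31, 1.23 to 1.58 and 1.49 to 1.82. The remaining probe set, 1443265_at, read 6.7 to 13.6 units on apoE-/- arrays and 5.2 to 10.1 units on wild type arrays. It was under the filter and its groups overlapped.

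The alpha v integrin chain did not share this pattern. Its brightest probe set, 1452784_at, read 6318.6, 5846.1 and 5175.8 units on the apoE-/- arrays, against 6083.5, 5565 and 6163 units on the wild type arrays. The groups overlapped, and the log2 difference was -0.04 ± 0.10 (SE). Probe set 1421198_at also overlapped, at 337.8 to 420.1 units in apoE-/- and 313 to 409.8 units in wild type, with a difference of 0.00 ± 0.15. A dimmer probe set, 1432296_a_at, read 130.4, 117.4 and 80.8 units in apoE-/-, against 148.4, 190.3 and 157.5 units in wild type. All its apoE-/- values lay below all wild type values, with a difference of -0.55 ± 0.23. It passed the filter only through its wild type values, as its apoE-/- mean of 110 units was under the limit, and its gap to the other Itgav probe sets was not tested. Its other 2 probe sets, 1432679_at and 1432678_at, were under the filter, with no value above 66.3 units on any array.

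The beta 3 chain, partner of alpha v in the vitronectin receptor of vessel wall cells, platelets and osteoclasts, was a little lower on average by both probe sets, with overlap. Probe set 1455257_at read 1434.9, 1537.9 and 1364.5 units on the apoE-/- arrays, against 1868.5, 1250.1 and 1775.7 units on the wild type arrays. Wild type replicate 2 was the lowest of all 6 arrays and wild type replicates 1 and 3 the highest, and the log2 difference was -0.15 ± 0.15 (SE). Probe set 1421511_at read 134.1, 222.1 and 158.9 units in apoE-/-, against 191.9, 235.2 and 217.3 units in wild type, a difference of -0.32 ± 0.21. Beside these values, the summed platelet markers (5 of 6 tested, none called) read 5739 to 6752 units on apoE-/- arrays and 5886 to 9958 units on wild type arrays. The highest platelet sum was on wild type replicate 1, where each of the 5 markers had its highest value. Ppbp read 3891.4 units there and 1279.7 and 1700.3 units on wild type replicates 2 and 3. Pf4 read 4377.1 units there and 3519.3 and 3198.1 units on those replicates. The part of platelets in the Itgb3 signal was not tested.

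The alpha 9 chain, which pairs with beta 1 and binds thrombin-cleaved osteopontin, had 3 probe sets, all with overlapping groups. Probe set 1460285_at read 1744.3, 2266.9 and 1554.8 units on the apoE-/- arrays, against 2260, 1680.8 and 2763.6 units on the wild type arrays. The other 2 read 1139 to 1573.3 and 378.2 to 453.8 units in apoE-/-, and 1169.9 to 1571.6 and 437.9 to 552.9 units in wild type. The log2 differences were -0.26 ± 0.19, -0.15 ± 0.16 and -0.23 ± 0.14 (SE). Wild type replicate 3, the array with the high skeletal muscle markers, had the highest 1460285_at value. Without that array the 3 differences were -0.09, -0.09 and -0.26, and without wild type replicate 2 they were -0.44, -0.29 and -0.30. Probe set 1450029_s_at carries a suffix for probes that can match more than one gene.

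**Figure D2:**
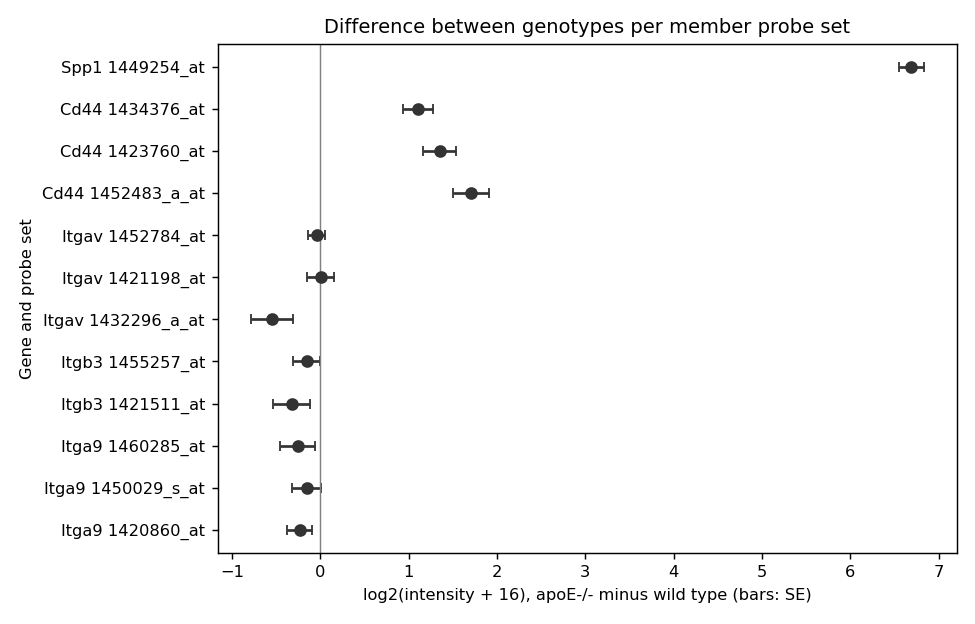
Difference between apoE-/- and wild type on the log2(intensity + 16) scale for the 12 kept member probe sets, with bars for the SE. Spp1 stands at 6.69 and the 3 Cd44 probe sets at 1.11 to 1.71, and the integrin probe sets lie between -0.55 and 0.00.

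Of the 15 probe sets, 12 passed the filter and 3 did not, those 3 with means over all arrays of at most 35.7 units and the dimmest kept one with a mean of 137 units. Among the 12, 4 were higher in apoE-/- without overlap of the groups, 1 was lower without overlap and 7 overlapped. Among all 27022 kept probe sets, 10.6% were higher without overlap and 12.2% lower. Since the members were chosen with this contrast known, their count is given beside those shares and not read against them. Of the 8 kept probe sets of the 3 integrin genes, 7 had a negative difference, 3 of them probe sets of Itga9 alone. Over all genes, 41.2% had a positive difference, and the median over all kept probe sets was -0.04.

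The members ranked differently across the 3 apoE-/- arrays, which are too few for a test of whether they vary together. On apoE-/- replicate 2, the Cd44 probe sets 1434376_at and 1423760_at stood at 65.6% and 61.6%, and 1452483_a_at at 77.2%, of the mean of the other apoE-/- arrays. The sum of 12 macrophage markers on that array was 67.8% of the same mean, and Spp1 was at 84.8%. The 3 Itga9 probe sets went the other way, at 118% to 137%, the Itgb3 probe sets were at 110% and 152%, and the kept Itgav probe sets at 102% to 120%. The highest apoE-/- value was 1.30 times the lowest for Spp1 and 1.49 times the lowest for the macrophage marker sum. For the fibroblast and smooth muscle marker sums it was 1.27 and 1.23 times the lowest. Those sums stood at 86.7% and 96.3% on replicate 2, so the Spp1 spread was near that of other bright signals. Whether brightness enters the gap between Spp1, Cd44 and the macrophage sum was not tested.

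All 12 macrophage markers were higher in apoE-/- without overlap, and 11 of the 12 passed the test. Their sum read 45054 to 67109 units on apoE-/- arrays and 19226 to 21223 units on wild type arrays. The 5 osteoclast markers summed to 2546 to 5376 units in apoE-/- and 1638 to 2227 units in wild type, with 1 of 2 tested called, Ctsk, and with the osteoclast genes Calcr, Dcstamp and Ocstamp under the filter. In whole aorta, more cells of a type and more RNA per cell cannot be told apart, and the part of macrophage content in the values of Spp1 and Cd44 was not tested.

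Genes were ordered by how near their profiles over the 6 arrays lay to those of the members. Likeness was measured as the root-mean-square difference between log2 profiles after each was centred on its own mean, so 0 means the same differences on every array. For Spp1 the nearest named genes were Mmp12 (0.46), a macrophage elastase, Cd5l (0.74), a secreted macrophage protein, Lcn2 (1.0), Atp6v0d2 (1.20), a proton pump subunit, and Il7r (1.35). Mmp12, Lcn2, Atp6v0d2 and Il7r had wild type means under the filter limit, so these distances rest in part on dim values. With Spp1 itself, Mmp12, Cd5l, Lcn2 and Atp6v0d2 had the largest rises of all kept probe sets. The Spp1 order therefore largely restates the size of the genotype difference. For Cd44 (1434376_at) the nearest genes were Alox5ap (0.07), Csf1r (0.07) and Ctsz (0.08). They encode the activator of 5-lipoxygenase, the receptor for colony-stimulating factor 1 and a lysosomal protease. The Csf1r probe set meant here, 1419873_s_at, is not the one used among the macrophage markers, which had a log2 difference of 0.50 (limma adjusted p = 0.111). The genes nearest to Itgav were Pxdn, Ddx17 and Fgl2 (0.02 each), those nearest to Itgb3 were Pcsk5 (0.03), Fance (0.04) and Clock (0.04), and those nearest to Itga9 were Fam120b (0.04), Smarca1 (0.04) and Bmf (0.05).

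**Figure D3:**
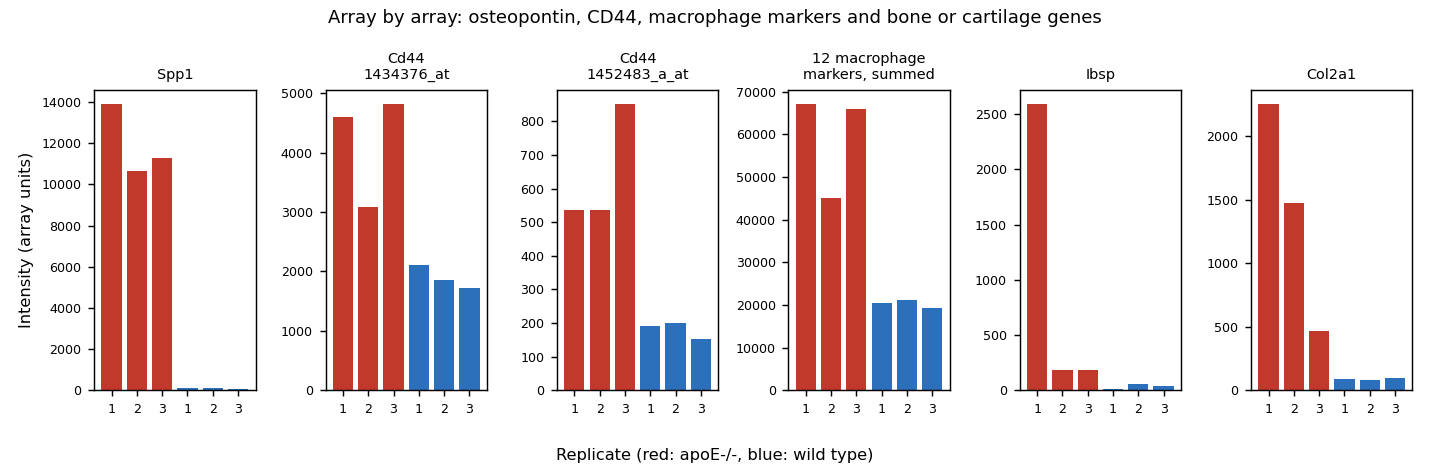
Intensity per array, in array units on axes from 0, for Spp1, 2 Cd44 probe sets, the sum of 12 macrophage markers, Ibsp and Col2a1, with apoE-/- (red) left of wild type (blue). Spp1 is high on all 3 apoE-/- arrays, Ibsp reaches 2593.3 units on apoE-/- replicate 1 alone, and Col2a1 differs 4.81-fold among the apoE-/- arrays.

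Osteopontin belongs to the SIBLING proteins, acidic phosphoproteins of bone and teeth whose genes lie side by side. Ibsp, bone sialoprotein, was the only other family gene above the filter, and passed it only through its apoE-/- values. It read 2593.3, 186.1 and 184.6 units on the apoE-/- arrays, against 10.9, 58.1 and 36.9 units on the wild type arrays. All apoE-/- values lay above all wild type values, but replicate 1 was 14.0 times the lowest of its genotype, and the gene was not called (log2 difference 3.32 ± 0.90, SE, limma adjusted p = 0.106, unadjusted p = 0.00497). Mepe, a further bone family member, read 268.3, 22.2 and 54 units in apoE-/-, against 63.5, 59 and 42.4 units in wild type, and Dmp1 read 70.7, 4 and 2.2 units in apoE-/-, against 8.5, 18.5 and 2.5 units in wild type. Both were under the filter, and each was high on apoE-/- replicate 1 alone. Dspp, of dentine, read at most 10.6 units on any array.

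The cartilage collagen Col2a1 read 2253.8, 1477.9 and 468.3 units in apoE-/-, against 89.5, 79.7 and 98.4 units in wild type, highest on the same array. Spp1 also had its highest value there, by a far smaller margin. Some bright genes with little genotype difference were highest on that array too. Among these, Acta2 read 16384.8, 12763.4 and 12506.3 units in apoE-/-, and Tagln 14903, 11120.1 and 11341 units. The order of the Spp1 values is therefore not a trait shared only with the bone and cartilage genes. Col2a1 was called (limma adjusted p = 0.00556). It passed the filter only through its apoE-/- values, as its wild type mean was 89.2 units. Of the other cartilage and bone markers, Sox9, a cartilage transcription factor, was called as well, at 327.4, 295.4 and 335.7 units in apoE-/-, against 93.5, 158 and 189.8 units in wild type (limma adjusted p = 0.0493), with its highest value on replicate 3. Acan, Alpl and Sp7 were not called and overlapped, with differences of 0.53, 0.14 and -0.25. Of the 10 protein-coding genes nearest to Spp1 on its chromosome, 5 on each side, 3 were tested, and 0 were called by limma. These 3 were Sparcl1 (log2 difference -0.24, adjusted p = 0.244, unadjusted p = 0.0282), Ibsp, and Zfp33b (-0.22, adjusted p = 0.522).

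The rest of the pathway was read in 8 lists of 88 genes, of which 71 were tested. In the limma test over all kept probe sets, 13 of the 71 rose in apoE-/- aorta and 1 fell. Among all 13053 genes with a kept probe set, 3.1% were called higher and 0.368% lower. The median log2 difference was 0.12 over the 71 genes and -0.05 over all genes. The lists were drawn up with earlier results of these data known. The counts and medians are therefore given beside the values for all genes and not read against them. Several of the genes that rose are made mainly by leukocytes, and the macrophage marker sums above stand beside them. Their part in these rises was not tested.

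A list of 7 genes held the beta chains that pair with alpha v or alpha 9 (Itgb1, Itgb5, Itgb6, Itgb8) and 3 alpha chains of other osteopontin-binding integrins (Itga4, Itga5, Itga8). Of these, 6 were tested and limma called 0. Itga4, the leukocyte chain that binds osteopontin and VCAM-1, had the smallest p, at 804.6, 648.6 and 858.2 units in apoE-/-, against 574.2, 443.3 and 393.2 units in wild type (log2 difference 0.70 ± 0.17, SE, limma adjusted p = 0.0707). Its groups did not overlap. The bright chains Itgb1, Itgb5 and Itga8 had differences of -0.13, 0.01 and -0.02. Itgb1 was lower without overlap, at 7453.6 to 7833.3 units in apoE-/- and 7843.6 to 8942.5 units in wild type. Itgb8 was also higher without overlap and not called (log2 difference 0.62, limma adjusted p = 0.103). Without apoE-/- replicate 2, 2 of the 6 were called.

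Among 14 tested chains of a list of other integrin subunits, 3 rose and 1 fell. The 3 were chains of the leukocyte beta 2 integrins. Itgax (CD11c) read 2134.1, 1161 and 2855.5 units in apoE-/-, against 183.9, 158.8 and 196.1 units in wild type (log2 difference 3.31 ± 0.28, SE, limma adjusted p = 9.27e-04). Itgb2, the shared beta 2 chain, averaged 3058 ± 1333 units in apoE-/- and 546 ± 49.7 units in wild type (SD, n = 3 each, log2 difference 2.35). Itgam (CD11b) averaged 459 ± 138 units in apoE-/- and 123 ± 16.7 units in wild type (log2 difference 1.74), with a wild type mean under the filter limit. Apart from these, Itga1, a collagen receptor chain of smooth muscle, read 642, 643.6 and 559 units in apoE-/-, against 906.1, 1005.2 and 968 units in wild type (log2 difference -0.63 ± 0.11, limma adjusted p = 0.0207). Leaving out any one array ended this call, except apoE-/- replicate 2. Itga7, a laminin receptor chain of muscle, read 1187.5, 1506.9 and 1118.2 units in apoE-/-, against 1953.1, 1797.6 and 1876.2 units in wild type. It had a difference of -0.57 and was not called (limma adjusted p = 0.0521). Beside it, the summed skeletal muscle markers read 338.1 to 549 units on apoE-/- arrays and 793.7 to 19771 units on wild type arrays, the highest on replicate 3. The part of skeletal muscle in the Itga7 signal was not tested.

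Of 10 tested enzymes that cut, cross-link or modify osteopontin, 3 rose. Mmp12 read 6236.7, 3392.9 and 7585.4 units in apoE-/-, against 64.8, 24.6 and 14.2 units in wild type (log2 difference 6.88 ± 0.38, SE). It passed the filter only through its apoE-/- values. Mmp3, stromelysin, averaged 5477 ± 1287 units in apoE-/- and 2960 ± 316 units in wild type (SD, n = 3 each, limma adjusted p = 0.0351). Ctsd, the lysosomal cathepsin D, averaged 11438 ± 1424 units in apoE-/- and 7377 ± 777 units in wild type (limma adjusted p = 0.0255). Only Mmp12 of the 3 kept its call when replicate 1 or 3 of either genotype was left out, and Mmp3 also lost its call when the wild type array numbered 2 was. Mmp9, a gelatinase, read 335.4 to 462.9 units in apoE-/- and 335.3 to 501.6 units in wild type. F2, prothrombin, was high on apoE-/- replicate 3 alone, as given above with Plg and Vtn, and Tgm2, the transglutaminase that cross-links osteopontin, had a difference of -0.03. Acp5, the phosphatase TRAP, had overlapping groups (log2 difference 0.85, limma adjusted p = 0.242).

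Of 11 tested ligands that share the receptors, and hyaluronan synthases, 2 rose. Thbs1, thrombospondin 1, read 2755.4, 3067.1 and 3826.1 units in apoE-/-, against 1081.7, 831 and 801.3 units in wild type (log2 difference 1.81 ± 0.16, SE, limma adjusted p = 9.27e-04). Vcam1, a ligand of the alpha 4 and alpha 9 integrins, averaged 7156 ± 1590 units in apoE-/- and 2128 ± 244 units in wild type (SD, n = 3 each). Fibronectin (Fn1), periostin (Postn) and the matricellular Ccn2 were bright and differed by 0.12, -0.04 and -0.01. Among 10 CD44 partners, 1 rose, Cd74, the invariant chain that forms a receptor complex with CD44 (8465.4, 5450 and 8175 units in apoE-/-, against 2957.9, 2395.4 and 2677.9 units in wild type, log2 difference 1.43). Moesin, radixin and ezrin (Msn, Rdx, Ezr), which tie CD44 to actin, differed by -0.02, 0.01 and 0.18.

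Of 14 tested integrin adaptors and kinases, 3 rose, all of them kinases abundant in blood cells. Syk averaged 897 ± 192 units in apoE-/- and 393 ± 118 units in wild type (SD, n = 3 each, limma adjusted p = 0.0259), Fgr 588 ± 121 units in apoE-/- and 269 ± 74.7 units in wild type (limma adjusted p = 0.0417), and Ptk2b 760 ± 52.8 units in apoE-/- and 468 ± 15.9 units in wild type (limma adjusted p = 0.0146). When apoE-/- replicate 1, apoE-/- replicate 3 or the wild type array numbered 3 was left out, limma called 0 of the list, and it called 1 when the wild type array numbered 2 was. The other 11 tested genes of the list were not called. Among them Fermt3, the kindlin of blood cells, had a difference of 1.38 (limma adjusted p = 0.0541), with that sign in 3 of its 4 kept probe sets. Fermt2, the kindlin of wall cells, had one of -0.33 (limma adjusted p = 0.260), with that sign in 2 of its 3. The probe set used for each had groups without overlap, and the remaining 9 genes had differences between -0.29 and 0.04.

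Of 5 tested transcription factors known to act on the Spp1 promoter, 1 rose. Spi1, which encodes PU.1, read 613.6, 555.6 and 981.2 units in apoE-/-, against 312.5, 274.1 and 335.4 units in wild type (log2 difference 1.14 ± 0.21, SE, limma adjusted p = 0.0231). Leaving out any one wild type array, or apoE-/- replicate 1, ended the call. Mitf, Ets1, Jun and Fos were not called, with differences of 0.15, -0.04, 0.35 and 0.06. Fos ranged from 3026.2 to 7400.8 units within apoE-/- and from 2537.1 to 7859.3 units within wild type.

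**Figure D4:**
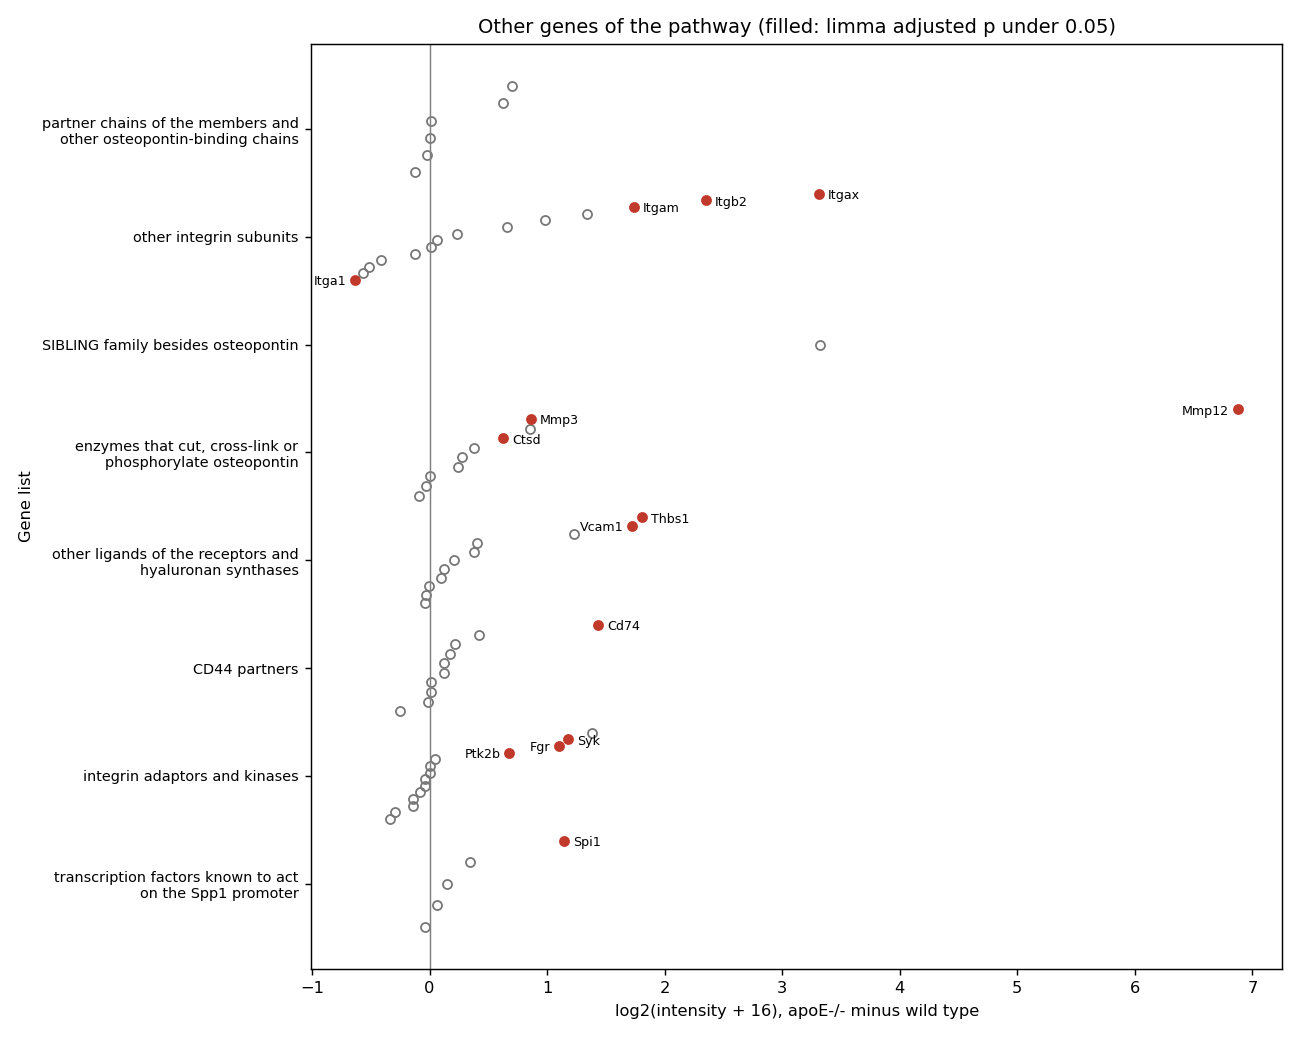
Difference between apoE-/- and wild type on the log2(intensity + 16) scale for 71 tested pathway genes in 8 lists, 1 point per gene, filled where limma's adjusted p was under 0.05. The 13 genes that rose and the 1 that fell are labelled, and Mmp12 lies farthest out at 6.88.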

How the data were processed

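Total RNA of 6 aorta samples (3 apoE-/-, 3 wild type, grouped by title) was measured on single-colour Affymetrix mouse arrays. The deposited table holds 1 linear intensity per probe set and array. The authors' software is not given in the sources used here, and, tested on the values, every array has a mean of 500.002 after trimming 2% at each end, so the deposited intensities were scaled to one level. That scaling was kept.

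Probe sets were named from the platform annotation (34958 with 1 symbol, 932 with several, which were not used, and 9160 without an entry), and 34754 of the single symbols were found in the GRCm38.p6 gene table. Values were taken as log2(intensity + 16), which understates changes of dim genes. The 64 control probe sets and the lower 40% of the rest by mean over all arrays (18015) were left out. The 27022 kept probe sets were fitted together in limma 3.58.1 (lmFit and eBayes with an intensity trend, run in R 4.3.3), with calls at a Benjamini-Hochberg adjusted p under 0.05. The fit was tested on simulated data, where it missed many of the smaller changes put in. A gene not called is therefore not shown to be unchanged. With 3 arrays against 3, array number limits the precision. A list gene was represented by its kept probe set of highest mean. Among the list genes named, the other kept probe sets of Fermt3, Fermt2, Rdx and Ets1 did not all share its sign.

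The members and all lists were chosen with earlier results of these data known. Genes named are Apoe, all member probe sets, up to 3 called genes per list (or that of smallest p), and the nearest profiles. Other named list members, the cell type markers, the Spp1 neighbours, Mepe, Dmp1, Dspp and Col2a1 were singled out after their values were seen. Alternatives were other offsets, normalizations, filters, no trend, array weights, 1 probe set per gene, a replicate block and leaving out each array.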

Additional observations from a re-analysis of the deposited data

How the results depend on the processing

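Spp1 and the 3 kept Cd44 probe sets kept a positive difference with other offsets, quantile normalization, median centring, array weights and any 1 array left out. The filters, the trend, 1 probe set per gene and the replicate block cannot change a member's difference by construction. The Spp1 log2 difference was 6.89 with an offset of 1, 6.19 with an offset of 64, and 6.58 to 6.77 when any 1 array was left out. The member differences moved by less than the replicate spread otherwise. The sign of Itgav 1452784_at and 1421198_at, both near 0, changed in some of these fits, at -0.11 to 0.04 and -0.11 to 0.07 with 1 array left out.

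The count of probe sets called higher was 678, and 430 without the intensity trend, 418 with 1 probe set per gene and 272 to 880 with 1 array left out (fewest when apoE-/- replicate 1 was the one left out, most when apoE-/- replicate 2 was). The count called lower was 76, and 29 without the trend, 117 with array weights and 20 to 211 with 1 array left out. Of the pathway genes, 13 rose, and 8 did with no filter, 8 without the trend and 7 to 18 with 1 array left out; 1 fell, and 2 did with a 60% filter, 2 with array weights, 2 with 1 probe set per gene and 0 to 3 with 1 array left out. Syk, Fgr, Ctsd, Spi1 and Mmp3 lost their call with no filter and without the trend. With a replicate block, 502 probe sets were higher and 32 lower, and 12 pathway genes were higher and 0 lower, with Ptk2b, Ctsd and Itga1 no longer called. No sign was seen that the labels' replicate numbers pair the arrays. Deviations of same-numbered arrays correlated at -0.11, -0.13 and -0.04, and 0 of 6 arrays correlated best with its own number. With 3 arrays per genotype, these values cannot exclude shared handling of same-numbered arrays. The cause of these shifts was not tested. The table has no detection calls, so low signals have no lower bound.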
